A study of Mus musculus with 91 samples.

Results

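Two-pore-domain potassium (K2P) channels were examined in single layer 5 pyramidal neurons (L5 Pyrs) of the mouse primary visual cortex (V1). The members were 8 genes given by name, *Kcnk1*, *Kcnk2*, *Kcnk3*, *Kcnk4*, *Kcnk9*, *Kcnk10*, *Kcnk12* and *Kcnk13*, which are 8 of the 14 K2P genes with a row among the 34745 rows of the tables. They were read in every sequenced neuron, 91 in all, of which 47 were Pyr←LP neurons and 44 were Pyr←ORBvl neurons. *Kcnk2* is among the genes that the study itself named as higher in Pyr←LP neurons on these samples, so its direction here is not independent evidence.

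Pyr←LP and Pyr←ORBvl neurons are named for their top-down inputs, from the lateral posterior thalamic nucleus (LP) and from the ventrolateral orbitofrontal cortex (ORBvl). All neurons came from young adult wild-type mice of both sexes, with no treatment given in the labels, and were assigned to a subtype by a classifier of the hyperpolarization-activated current (Ih) slope rather than by a recorded input. In Patch-seq, each neuron was recorded and its soma and nucleus were then aspirated into the pipette for amplification and sequencing of its mRNA. Each sample is 1 neuron and the labels do not name its mouse, so the first part of the neuron's name (the name prefix) was used to pair the subtypes. What the prefix marks is not stated.

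K2P channels pass potassium near the resting potential and are a main source of the leak conductance that sets resting potential and input resistance. A channel is a dimer, and each subunit carries a pair of pore loops. The subfamilies differ in what opens or closes them: TREK and TRAAK channels respond to stretch, temperature and lipids, TASK channels to extracellular pH, and both TREK and TASK channels are inhibited downstream of Gq-coupled receptors.

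The pore loops are shown because they are what defines the family. For the 3 members covered by the main tests between the subtypes, the 30 coding bases around each selectivity filter were read from the longest complete coding transcript of GENCODE M21 (GRCm38). The capitals mark the codons for glycine, the middle residue and glycine.
Kcnk1 first loop: ctctccaccacaGGCTATGGCcacacggtg
Kcnk1 second loop: ctgagcaccatcGGCCTGGGGgactatgtt
Kcnk2 first loop: atcacaaccataGGATTTGGAaacatctcc
Kcnk2 second loop: ctgacgaccattGGATTTGGAgactacgtg
Kcnk12 first loop: gtgtcgaccataGGTTTCGGCatgacaaca
Kcnk12 second loop: ttcagcaccatcGGCTTCGGGgacctggtg

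The second loops lie within 1 exon, at chr8:126025323-126025352 on the plus strand in *Kcnk1*, at chr1:189256572-189256601 on the minus strand in *Kcnk2* and at chr17:87746444-87746473 on the minus strand in *Kcnk12*. The first loop is split by an intron in 8 of 8 members, and in each of the 8 the junction falls after base 13 of the 30, which is the first base of the capitals. The middle codon of the first loop encodes tyrosine in 5 members (*Kcnk1*, *Kcnk3*, *Kcnk4*, *Kcnk9* and *Kcnk10*) and phenylalanine in 3 (*Kcnk2*, *Kcnk12* and *Kcnk13*). That of the second loop encodes phenylalanine in 7 members and leucine in 1, *Kcnk1*.

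Depth differed widely between neurons. The deposited counts, which are uniquely aligned reads per gene after removal of duplicates, summed to between 2410 and 1948982 per neuron (median 423999), with medians of 411884 in Pyr←LP and 445008 in Pyr←ORBvl neurons. Shares of neurons with a count are given with 95% Wilson intervals, which treat neurons as independent although neurons share prefixes, and which do not cover amplification error, since the kit carries no molecular identifiers. The neuronal gene *Snap25* had a count in 91 of 91 neurons, the excitatory marker *Slc17a7* in 35 of 47 Pyr←LP and 36 of 44 Pyr←ORBvl neurons, and the L5 marker *Fezf2* in 20 and 32. Transcripts of other cells were present in both groups. At least 1 of 6 GABAergic markers had a count in 21 Pyr←LP and 23 Pyr←ORBvl neurons, at least 1 of 6 microglial markers in 45 and 44, at least 1 of 5 oligodendrocyte markers in 46 and 44, and at least 1 of 5 astrocyte markers in 18 and 22. Pyr←ORBvl neurons 5 and 11, of different prefixes, had nearly the same counts (Pearson r of log2(count + 1) 0.993, against 0.711 in the next closest pair of neurons). They differed by more than counting error (chi-square per degree of freedom 3.45 over 3317 genes, against at least 70.4 in other pairs of 1 subtype with 500000 or more counts each). That chi-square does not cover amplification error, so it cannot show whether the 2 are separate cells. They were kept as 2 neurons, and the differences between the subtypes in *Kcnk1* and *Kcnk2*, which both neurons carry, are also given without them.

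*Kcnk2*, *Kcnk1* and *Kcnk12* were the members found in the most neurons, and the other 5 each had a count in at most 7 of 91 (plot of detection by gene). *Kcnk2* and *Kcnk1* were detected in larger shares of Pyr←LP neurons, and *Kcnk12* and *Kcnk10* in larger shares of Pyr←ORBvl neurons. *Kcnk1*, *Kcnk2* and *Kcnk12* alone of the 8 passed the study's gene filter (at least 5 counts in at least 10 neurons), so the main tests across genes cover those 3. The other 5 were tested only in alternatives with no gene filter, and none of them was called.

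**Figure D1:**
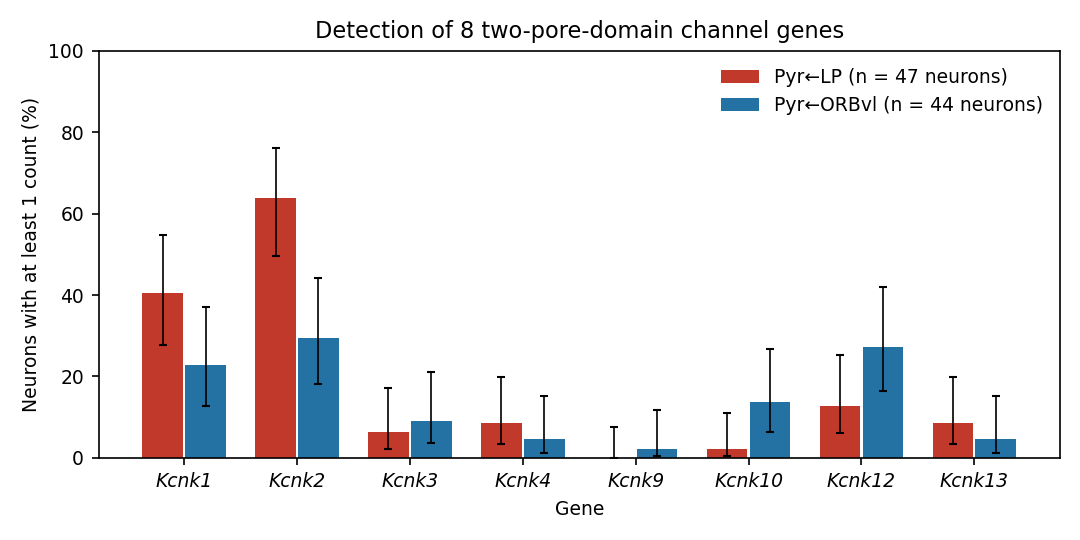
Share of neurons with at least 1 count (vertical axis, %) for each of the 8 genes (horizontal axis) in Pyr←LP (red, n = 47) and Pyr←ORBvl (blue, n = 44) neurons; whiskers are 95% Wilson intervals. *Kcnk2* reached 63.8% and 29.5%, and *Kcnk3*, *Kcnk4*, *Kcnk9* and *Kcnk13* stayed under 10% in both subtypes.

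*Kcnk2* encodes TREK-1, a stretch- and lipid-gated channel that is widely expressed in cortical neurons (chr1:189207930-189402273, minus strand). A count was found in 30 of 47 Pyr←LP neurons (63.8%, interval 49.5 to 76.0) and in 13 of 44 Pyr←ORBvl neurons (29.5%, interval 18.2 to 44.2). FPKM, which are counts scaled by the length of the gene and the total of the neuron, ran from 0 through a median of 3.79 to 156 in Pyr←LP neurons and from 0 through a median of 0 to 102 in Pyr←ORBvl neurons. The ranges overlap, and 17 Pyr←LP and 31 Pyr←ORBvl neurons were at 0. The mean FPKM was 12.1 ± 28.03 (SD, n = 47) against 3.97 ± 15.8 (SD, n = 44), and 58.6% of the Pyr←ORBvl sum came from neuron 44 alone. Where a count was found, the median was 8.53 FPKM in Pyr←LP and 3.57 FPKM in Pyr←ORBvl neurons, and 4 of the 13 Pyr←ORBvl neurons had a single count. Without the nearly equal pair, which carries *Kcnk2* in both neurons (31 and 34 counts), the Pyr←ORBvl share was 26.2% (11 of 42). Among Pyr←ORBvl neurons, those with *Kcnk2* had a median total of 884383 counts against 409959 for those at 0, and 4 of the 13 exceeded the study's limit for GABAergic transcripts against 1 of the 31 without it (2 of 11, with a median total of 674006, without the nearly equal pair). That limit is 7 for the sum of log2(count + 1) over *Slc32a1*, *Gad1* and *Gad2*. Without the neurons over it, *Kcnk2* was found in 28 of 44 Pyr←LP (63.6%) and 9 of 39 Pyr←ORBvl neurons (23.1%). Over both subtypes, the sum of log2(count + 1) over 6 microglial markers had a median of 21.3 in the 43 neurons with *Kcnk2* and of 16.6 in the other 48, and at least 1 astrocyte marker had a count in 22 and 18 of them. The part of these signals was not tested, and that of depth was not tested beyond the thinning given with the prefixes.

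The difference in *Kcnk2* detection was not the same in every prefix. In the 14 prefixes that hold both subtypes, 25 of 40 Pyr←LP and 12 of 41 Pyr←ORBvl neurons had a count. In prefix 913 it was found in 5 of 5 Pyr←LP and 0 of 2 Pyr←ORBvl neurons, and in prefix 919 in 3 of 3 and 0 of 1. In prefix 914 it was found in 0 of 1 and 2 of 4, and in prefix 826 in 0 of 1 and 1 of 1. The share was larger in Pyr←LP neurons in 8 prefixes and larger in Pyr←ORBvl neurons in 6. When each prefix counted equally, the mean difference was −14.4 percentage points (Pyr←ORBvl minus Pyr←LP, SEM 16.5, n = 14 prefixes; exact two-sided sign-flip permutation test, p = 0.393, adjusted p = 0.942 over 8267 genes). The mean difference in log2(FPKM + 1) was −0.78 (SEM 0.430; higher in Pyr←LP neurons in 9 prefixes and in Pyr←ORBvl neurons in 5; exact p = 0.0947, adjusted p = 0.686), and −0.85 without the nearly equal pair (exact p = 0.0657, adjusted p = 0.643). For the share, leaving out prefix 913, 919 or 8-27 (4 of 4 and 0 of 2) gave −7.82 points, and leaving out prefix 826 gave −23.2 points. With at least 5 counts required it was −23.9 points (exact p = 0.0811), and with neurons thinned to 100000 counts −33.3 points over 11 prefixes (exact p = 0.0742).

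Where exons of *Kcnk2* overlap those of its antisense neighbour, reads cannot be assigned to either gene without strand. The kit does not mark strand, and the share of *Kcnk2* reads from this overlap was not examined. *A430027H14Rik* lies on the plus strand at chr1:189343431-189344897, and its annotated exons overlap exons of *Kcnk2*. It was also, by the rule for likeness, the gene whose log2(FPKM + 1) followed that of *Kcnk2* most closely over the 91 neurons (Pearson r = 0.65, and 0.67 without the nearly equal pair), a description that shares libraries and depth. It had a count in 35 neurons, and 33 of these also had a count of *Kcnk2*. By subtype it was found in 27 of 47 Pyr←LP neurons (57.4%) and 8 of 44 Pyr←ORBvl neurons (18.2%). The next closest genes were *Zyx*, which encodes a focal adhesion protein (r = 0.49), and *Fbxl22*, which encodes an F-box protein (r = 0.48). Of the other tested members, taken whatever their rank among all genes, *Kcnk1* stood at r = 0.46 and *Kcnk12* at r = −0.21.

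The other 2 stretch-gated channels were rare. *Kcnk10* encodes TREK-2, the closest relative of TREK-1 (chr12:98429437-98578310, minus strand). It had a count in 1 Pyr←LP neuron, neuron 33 with 295 counts and 171 FPKM, and in 6 Pyr←ORBvl neurons (13.6%, interval 6.4 to 26.7). Those 6, neurons 20, 21, 22, 29, 41 and 42, had 203, 7, 53, 65, 66 and 7 counts. Neurons 20 to 22 belong to prefixes 830 and 831, and neurons 41 and 42 to prefix 916. The share was larger in Pyr←ORBvl neurons in 4 prefixes, larger in Pyr←LP neurons in 1 and equal in 9 (mean difference 12.1 points, SEM 7.84). *Kcnk10* was tested only with no gene filter (exact two-sided sign-flip permutation test, p = 0.125). Without prefix 916 the difference was 5.38 points. Some markers of other cells moved with *Kcnk10*: at least 1 astrocyte marker had a count in 5 of its 7 neurons against 35 of the other 84, and the sum of log2(count + 1) over the 6 microglial markers had a median of 30.3 against 17.3. Others went the other way. At least 1 GABAergic marker had a count in 2 of the 7 against 42 of the 84. Oligodendrocyte precursor and endothelial markers each had one in 0 against 4. Their part in the result was not tested. *Kcnk2* was found together with *Kcnk10* in 2 neurons.

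*Kcnk4* encodes TRAAK (chr19:6923966-6934515, minus strand). It had a count in 4 Pyr←LP neurons (27, 31, 34 and 43, with 29, 18, 18 and 1 counts) and in 2 Pyr←ORBvl neurons (29 and 44, with 53 and 189 counts). Each of these 6 neurons also had a count of *Kcnk2*. The sum of log2(count + 1) over the 6 GABAergic markers had a median of 11.8 in these 6 neurons and of 0 in the other 85. The same sum had medians of 10.2 against 0 over the 5 astrocyte markers and of 22.6 against 14.3 over the 5 oligodendrocyte markers, and the part of these signals in the result was not tested.

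*Kcnk1* encodes TWIK-1, a channel of weak current that is abundant in brain mRNA (chr8:125995170-126030685, plus strand). A count was found in 19 of 47 Pyr←LP neurons (40.4%, interval 27.6 to 54.7) and in 10 of 44 Pyr←ORBvl neurons (22.7%, interval 12.8 to 36.99). FPKM ran from 0 through a median of 0 to 721 in Pyr←LP neurons and from 0 through a median of 0 to 171 in Pyr←ORBvl neurons. The 19 Pyr←LP neurons with a count lay between 32.9 and 721 FPKM (median 181), whereas 3 of the 10 Pyr←ORBvl neurons (15, 29 and 37) lay at 2.07, 2.42 and 0.887 FPKM, on 3, 1 and 2 counts (plot of levels where a count was found). The lowest count in a Pyr←LP neuron was 5. The mean FPKM was 93.2 ± 161 (SD, n = 47) against 14.2 ± 37.9 (SD, n = 44).

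**Figure D2:**
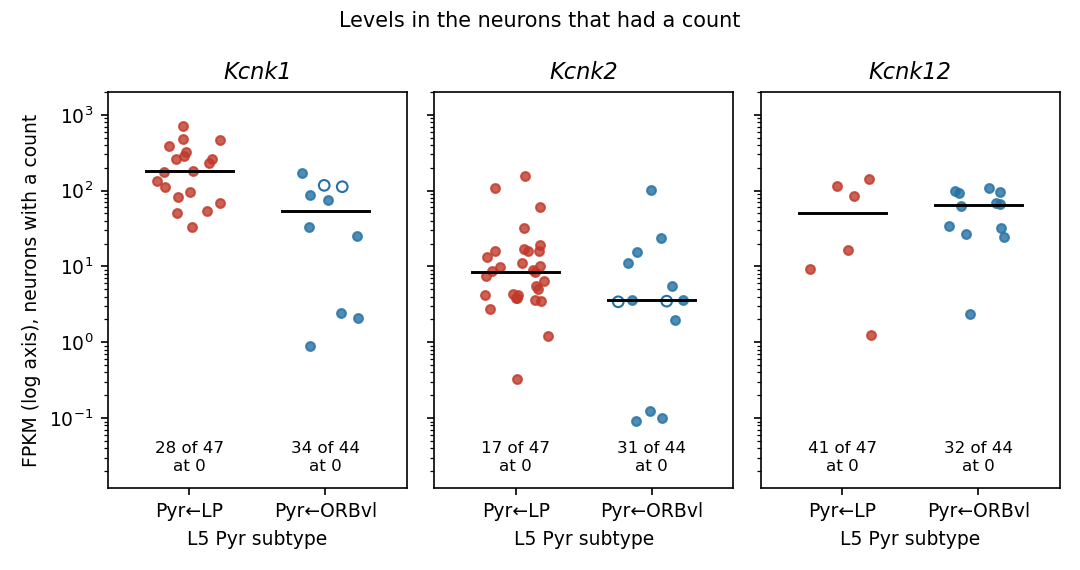
FPKM on a log axis of *Kcnk1*, *Kcnk2* and *Kcnk12* in the neurons with a count, by subtype; each point is 1 neuron, bars are medians, open circles are the nearly equal pair, and the number of neurons at 0 stands under each group. For *Kcnk1* the medians were 181 and 53.7 FPKM.

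Within prefixes, mean log2(FPKM + 1) of *Kcnk1* was higher in Pyr←LP neurons in 11 of 14 and higher in Pyr←ORBvl neurons in 3 (plot of differences within prefixes). The mean difference was −2.35 on the log2(FPKM + 1) scale, which understates the change of low values (SEM 0.786; exact two-sided sign-flip permutation test, p = 0.0123, adjusted p = 0.501 over 8267 genes). An unadjusted p under 0.05 with the higher level in Pyr←LP neurons was found for 2.21% of all genes, and no gene reached an adjusted p under 0.05 (an unadjusted p under 0.05 was found for 183 genes higher in Pyr←LP and 508 higher in Pyr←ORBvl neurons). The smallest p that 14 prefixes allow is 0.000122. For the share of neurons with a count of *Kcnk1* the mean difference was −25.8 points (SEM 11.4; exact sign-flip permutation test, p = 0.0446, adjusted p = 0.741), against 1.38% of all genes with an unadjusted p under 0.05 in that direction. Without the nearly equal pair, both of which carry *Kcnk1* (257 and 288 counts), the differences were −2.54 and −28.5 points (exact p = 0.00415 and 0.0205, adjusted p = 0.42 and 0.726). With each prefix left out in turn, the exact p for the level lay between 0.00269 and 0.0247, and that for the share between 0.0127 and 0.0884, at or over 0.05 in 10 of 14 cases. The smallest difference in share was −20.1 points, without prefix 826. In neurons with at least 100000 counts the difference in level was −1.69 over 11 prefixes (exact p = 0.0977), and the difference in share after thinning to 100000 counts was −25.0 points (exact p = 0.121).

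The neurons with *Kcnk1* were also the deeper ones. Their median total was 590757 counts against 299758 for the Pyr←LP neurons at 0, and 833147 against 233083 in Pyr←ORBvl neurons. After thinning every neuron with enough reads to 100000 counts, 16 of 38 Pyr←LP neurons (42.1%) and 7 of 34 Pyr←ORBvl neurons (20.6%) had a count, against 42.1% and 29.4% before thinning. Of the 10 Pyr←ORBvl neurons with *Kcnk1*, 4 exceeded the limit for GABAergic transcripts, against 1 of the 34 without it. The nearly equal pair makes up 2 of those 4, and without it the count was 2 of 8 and the median total 680402. The microglial sum had a median of 23.2 in the 29 neurons with *Kcnk1* and of 16.99 in the other 62. Their part in the result was not tested. Without the neurons over that limit, *Kcnk1* was found in 17 of 44 Pyr←LP (38.6%) and 6 of 39 Pyr←ORBvl neurons (15.4%).

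**Figure D3:**
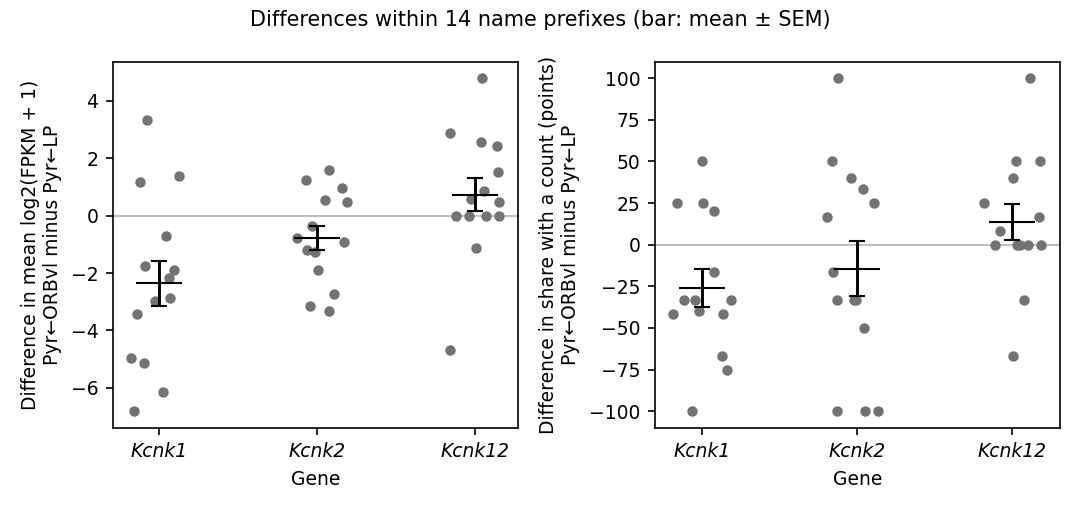
Differences between the subtypes (Pyr←ORBvl minus Pyr←LP) within each of 14 prefixes, in mean log2(FPKM + 1) (left) and in the share of neurons with a count, in percentage points (right); each point is 1 prefix and bars are the mean ± SEM. *Kcnk1* lies below 0 in 11 of 14 prefixes on the left and 10 of 14 on the right.

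*Kcnk12* encodes THIK-2, a member of the halothane-inhibited pair of K2P channels (chr17:87745801-87797994, minus strand). A count was found in 6 of 47 Pyr←LP neurons (12.8%, interval 5.98 to 25.2) and in 12 of 44 Pyr←ORBvl neurons (27.3%, interval 16.3 to 41.8). FPKM ran from 0 to 142 in Pyr←LP and from 0 to 108 in Pyr←ORBvl neurons, with medians of 0 in both. Where a count was found, the medians were 50.9 and 65.0 FPKM, so that the levels of the neurons with a count overlapped. The Pyr←ORBvl neurons with *Kcnk12* had a median total of 832979 counts against 302254 for those at 0, and 0 of the 12 exceeded the limit for GABAergic transcripts. Over both subtypes, the sum of log2(count + 1) over 6 microglial markers had a median of 28.9 in the 18 neurons with *Kcnk12* and of 17.05 in the other 73, and that over 5 oligodendrocyte markers 18.2 and 13.7. Their part in the result was not tested. Within prefixes the share was larger in Pyr←ORBvl neurons in 7, larger in Pyr←LP neurons in 2 and equal in 5 (mean difference 13.6 points, SEM 10.6; exact sign-flip permutation test, p = 0.25, adjusted p = 0.887). The difference in mean log2(FPKM + 1) was 0.73 (SEM 0.587; exact p = 0.238, adjusted p = 0.793). The 2 prefixes with the larger share in Pyr←LP neurons were 727 (2 of 3, with 142 and 115 FPKM, against 0 of 1) and 909 (1 of 3 against 0 of 2). Without prefix 727 the difference in mean log2(FPKM + 1) was 1.15 (exact p = 0.0234, adjusted p = 0.474), and without prefix 919 it was 0.42 (exact p = 0.461, adjusted p = 0.908). The difference in share fell to 6.92 points without prefix 919 (exact p = 0.492) and to 5.24 points when at least 5 counts were required (exact p = 0.578). *Kcnk2* had a count in 4 of the 6 Pyr←LP and 1 of the 12 Pyr←ORBvl neurons with *Kcnk12*, and *Kcnk1* in 4 and 3.

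*Kcnk13* encodes THIK-1, the other member of that pair, which is known as the main potassium channel of resting microglia (chr12:99964499-100062682, plus strand). It had a count in 4 Pyr←LP neurons (10, 11, 27 and 28, with 1, 498, 106 and 1 counts) and in 2 Pyr←ORBvl neurons (25 and 30, with 31 and 29 counts). Microglial and astrocyte transcripts moved with it. The sum over the 5 astrocyte markers had a median of 8.84 in these 6 neurons and of 0 in the other 85. The sum of log2(count + 1) over 6 microglial markers (*C1qa*, *C1qb*, *C1qc*, *Cx3cr1*, *P2ry12* and *Csf1r*) was 74.3 in Pyr←LP neuron 11, the highest of the 91 neurons and the deepest (1948982 counts), and 61.6 in Pyr←ORBvl neuron 30, the next highest. It was 52.1 in Pyr←LP neuron 27 and 32.1 in Pyr←ORBvl neuron 25, which ranked 8 and 23. In the 2 neurons with a single count of *Kcnk13* it was 9 and 7.23. Over the 85 neurons without *Kcnk13* the median was 18.7 (range 0 to 60.1), and the part of depth and of RNA of other cells in the counts of *Kcnk13* was not tested.

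The TASK channels, which carry much of the pH-sensitive leak current in many neurons, were found in few neurons. *Kcnk3*, which encodes TASK-1 (chr5:30588170-30625271, plus strand), had a count in 3 Pyr←LP neurons (31, 34 and 41, with 1, 54 and 6 counts) and in 4 Pyr←ORBvl neurons (20, 27, 29 and 34, with 650, 1, 49 and 18 counts). The sum over the GABAergic markers had a median of 11.97 in these 7 neurons and of 0 in the other 84, that over the astrocyte markers 5.43 against 0, and that over the oligodendrocyte markers 21.4 against 14.4. Their part in the result was not tested. *Kcnk9*, which encodes TASK-3 (chr15:72501089-72546340, minus strand), had a count in 1 neuron, Pyr←ORBvl neuron 21 (15 counts, 98.4 FPKM). It was found in 0 of 47 Pyr←LP neurons, which allows up to 6.38% of neurons with a count when the upper limit is set at 3 neurons of the total (the Wilson upper bound is 7.56%). A gene at 0 in a neuron was not detectable at this depth, which does not show that it was absent.

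Ordered by mean log2(FPKM + 1) over all 91 neurons, the levels were 2.07 for *Kcnk1*, 1.46 for *Kcnk2*, 1.05 for *Kcnk12*, 0.43 for *Kcnk10*, 0.37 for *Kcnk4*, 0.34 for *Kcnk3*, 0.19 for *Kcnk13* and 0.073 for *Kcnk9*. FPKM is per length, but with a pseudocount of 1 this order also depends on gene length and on the share of neurons at 0. This order did not hold within each subtype. In Pyr←LP neurons the mean log2(FPKM + 1) was 2.99 for *Kcnk1*, 2.15 for *Kcnk2* and 0.62 for *Kcnk12*, whereas in Pyr←ORBvl neurons it was 1.505 for *Kcnk12*, 1.09 for *Kcnk1*, 0.74 for *Kcnk2* and 0.72 for *Kcnk10*; these orders within a subtype were not tested. *Kcnk2* had a count in more neurons than *Kcnk1* but a lower level, and its row in the FPKM table was scaled by a length of 9148 bases against 2301 for *Kcnk1*. The order over all 91 neurons came from the same values as the comparisons of neighbours that follow. Each pair and its direction were thus set by the data, and the p-values cannot test the order. Of the 7 neighbouring pairs in this order, *Kcnk12* and *Kcnk10* differed over the 17 prefix means with an unadjusted p under 0.05 (mean difference 0.67, SEM 0.290; exact two-sided sign-flip permutation test, p = 0.0308). *Kcnk1* and *Kcnk2* differed by 0.68 (SEM 0.340, exact p = 0.0631), and for the other 5 pairs the exact p lay between 0.312 and 0.734.

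Most neurons had a count of at most 1 of the 8 genes (map of the genes over neurons). No member was found in 10 of 47 Pyr←LP neurons (21.3%) and 15 of 44 Pyr←ORBvl neurons (34.1%), and exactly 1 was found in 17 and 17. Of the 91 neurons, 14 had counts of 3 or more members. The largest number was 5, in Pyr←LP neuron 27 (*Kcnk1*, *Kcnk2*, *Kcnk4*, *Kcnk12* and *Kcnk13*) and Pyr←ORBvl neuron 29 (*Kcnk1*, *Kcnk2*, *Kcnk3*, *Kcnk4* and *Kcnk10*). Pyr←LP neuron 34, with 4 members, had 11013 detected genes and a GABAergic sum over *Slc32a1*, *Gad1* and *Gad2* of 13.6. The pair found together most often was *Kcnk1* and *Kcnk2*, in 22 neurons, the nearly equal pair among them, or 22 of the 29 with *Kcnk1* and 22 of the 43 with *Kcnk2*. Of the 6 Pyr←ORBvl neurons with *Kcnk10*, 3 also had *Kcnk12*.

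**Figure D4:**
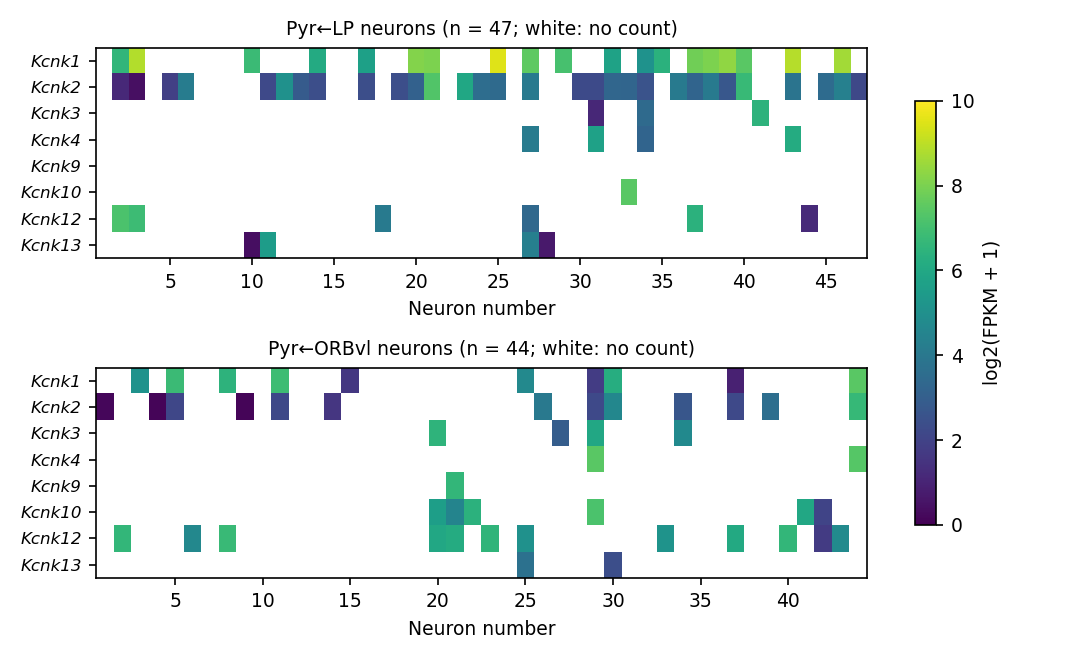
log2(FPKM + 1) of the 8 genes (rows) in each Pyr←LP neuron (top, n = 47) and Pyr←ORBvl neuron (bottom, n = 44), numbered along the horizontal axis; white marks no count. *Kcnk1* and *Kcnk2* fill most of the coloured cells of the upper panel, and *Kcnk9* has 1 coloured cell in all.

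To ask whether summed expression differed between the subtypes, counts were summed over the neurons of each subtype within each of the 14 shared prefixes and tested with edgeR's quasi-likelihood test, with the prefix as a block. A gene was called where its fold change exceeded 2 and its Benjamini-Hochberg adjusted p was under 0.05, the study's thresholds. None of the 3 tested members was called, against 1 of 8267 genes (0.0121%). The log2 fold change (Pyr←ORBvl over Pyr←LP) was −4.96 for *Kcnk1* (SE 2.19, p = 0.0237, adjusted p = 0.952), −2.53 for *Kcnk2* (SE 2.33, p = 0.278, adjusted p = 1.0) and 2.87 for *Kcnk12* (SE 2.34, p = 0.221, adjusted p = 1.0), all by edgeR. The median over all genes tested was 0.31. Some of the sums were 0, and the fold changes rest in part on these. For *Kcnk1*, prefix 727 held 547 counts in Pyr←LP and 0 in Pyr←ORBvl neurons, and prefix 822 held 0 and 395. For *Kcnk2*, prefix 913 held 200 and 0, and prefix 914 held 0 and 40. *Kcnk12* was at 0 in both subtypes in prefix 823. An unadjusted p under 0.05 was found for 381 genes, and 153 of these, 1.85% of all genes, were higher in Pyr←LP neurons, as *Kcnk1* was.

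The call for a member differed between the tools, with what was taken as a replicate and with the block (plot of fold changes under 6 fits). DESeq2 with neurons as replicates, the study's approach, called *Kcnk2* (log2 fold change −3.11, SE 0.791, adjusted p = 0.0152) and neither of the other 2, against 0.89% of the 7305 genes to which it gave an adjusted p. That call was kept without the nearly equal pair (DESeq2, −3.28, adjusted p = 0.0144, against 0.771% of 6871 genes with an adjusted p) and without the neurons over the GABAergic limit (DESeq2, −3.61, adjusted p = 0.00819, against 0.675% of 6372). edgeR on neurons called no member (*Kcnk1* adjusted p = 0.166, *Kcnk2* adjusted p = 0.546), against 1.57% of all genes. With the prefix as a block, edgeR on neurons called *Kcnk1* (−4.67, SE 1.39, adjusted p = 0.0465), against 2.1% of all genes. DESeq2 on the sums also called *Kcnk1* (−5.54, SE 1.24, adjusted p = 0.000598), but called 7.19% of the 7625 genes with an adjusted p. No fit called more than 1 member. *Kcnk12* was higher in Pyr←ORBvl neurons in each fit that gave it a value and was called in none.

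**Figure D5:**
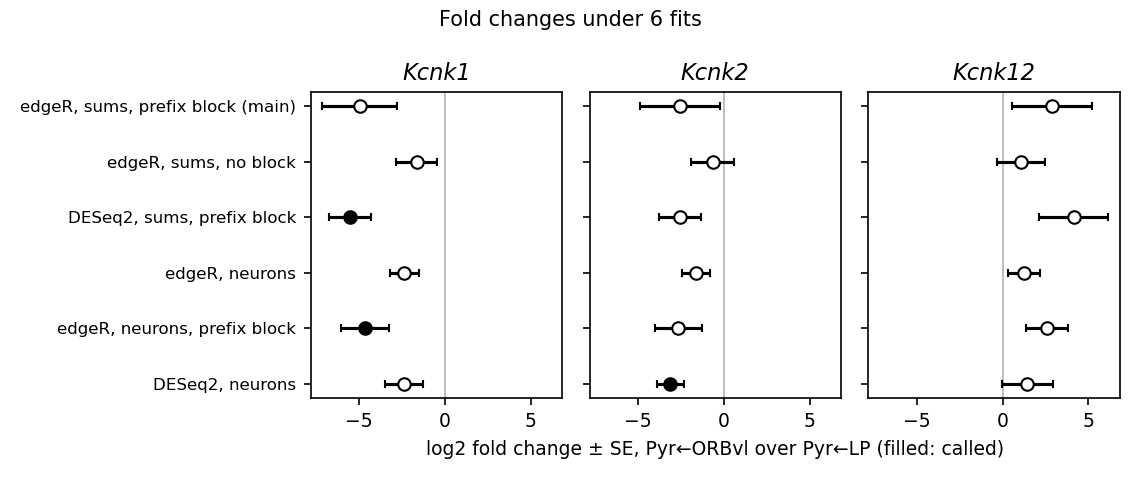
log2 fold change ± SE (horizontal axis, Pyr←ORBvl over Pyr←LP) of *Kcnk1*, *Kcnk2* and *Kcnk12* under 6 fits (rows), filled where the gene was called. SE is derived from the F statistic in the edgeR fits and is that of the fit in DESeq2, so the 2 are not alike. *Kcnk1* is filled in 2 fits, *Kcnk2* in 1 and *Kcnk12* in 0.

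The 6 K2P genes outside the list added little. *Kcnk7*, which encodes a subunit that gives no current on its own, had a count in 1 neuron of each subtype (135 and 104 counts). *Kcnk5*, *Kcnk6*, *Kcnk15*, *Kcnk16* and *Kcnk18* had a count in 0 of 91 neurons, which allows up to 3.3% of neurons with a count by the same limit of 3 of the total (the Wilson upper bound is 4.05%).

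Proteins that bind or modify K2P channels were tested in the same edgeR fit. Of 10 genes, 8 could be tested, 0 were called in either direction and 0 had an unadjusted p under 0.05. Their median log2 fold change was −0.093, against 0.31 over all genes. Among the genes with the highest levels were *Ywhab*, which encodes a 14-3-3 protein that helps TASK channels reach the surface (mean FPKM 170 ± 184 in Pyr←LP and 135 ± 135 in Pyr←ORBvl neurons, SD) and *Map2*, which encodes a dendritic microtubule protein (5.95 ± 9.27 and 7.33 ± 7.49). *S100a10* encodes p11, an adaptor of TASK-1, and had a count in 22 Pyr←LP neurons (46.8%) and 10 Pyr←ORBvl neurons (22.7%). Its log2 fold change was −4.21 (edgeR, SE 2.24, p = 0.0599, adjusted p = 1.0).

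Of 13 genes of the Gq pathway that inhibits TASK and TREK channels, 12 had a count, 7 could be tested, 0 were called and 0 had an unadjusted p under 0.05. Their median log2 fold change was 1.24, against 0.31 over all genes. The 4 with the highest mean log2(FPKM + 1) were *Grm5* (metabotropic glutamate receptor 5), with a count in 24 Pyr←LP and 28 Pyr←ORBvl neurons, *Plcb1* (phospholipase C beta), in 21 and 31, *Gna11* (a Gq-class alpha subunit), in 19 and 16, and *Chrm1* (the M1 muscarinic receptor), in 14 and 18. The log2 fold change of *Plcb1* was 2.998 (edgeR, SE 1.97, p = 0.128).

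Other background conductances gave 0 calls among 6 genes tested of 13 with a row, and 0 with an unadjusted p under 0.05, with a median log2 fold change of 0.82. The 4 highest were genes of the sodium leak channel complex. *Nalcn*, its pore, had a count in 13 Pyr←LP and 8 Pyr←ORBvl neurons (log2 fold change −4.34, edgeR, SE 2.69, p = 0.106). *Unc80*, *Unc79* and *Fam155a*, its auxiliary subunits, had a count in 27 and 28, in 12 and 16, and in 13 and 13 neurons.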

How the data were processed

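Counts of 91 L5 Pyrs (47 Pyr←LP, 44 Pyr←ORBvl) were analysed as the authors deposited them, without normalization. According to the study's methods, reads were aligned to GRCm38 with STAR (2.5.3 in the submitters' processing notes), duplicates were removed, and unique reads were counted on RefSeq genes. How the deposited FPKM were made is not given in the sources used here. Each FPKM above 0 was within 1% of the count divided by gene length and the neuron's total.

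Counts were summed per subtype within a name prefix (14 of 17 prefixes held both subtypes, with hyphens ignored) and tested with edgeR 4.0.16 (TMM, robust quasi-likelihood) on the 8267 genes that reached 5 counts in 10 or more neurons. The study used as replicates the neurons that passed its quality control. DESeq2 1.42.0 and edgeR with neurons as replicates were run as alternatives, on sets of neurons that differ from the study's. p-values measure the spread between these prefixes, whose relation to mice is not stated. Mean log2(FPKM + 1) (pseudocount 1) and shares were compared within prefixes by exact sign-flip tests. The scripts were tested on simulated data. R 4.3.3, Python 3.11.15, numpy 2.4.6, pandas 2.3.3, scipy 1.17.1 and matplotlib 3.10.9 were used.

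The members and gene lists were chosen with earlier results of these data known. Genes named were the members and, of each list, every gene called and the 4 with the highest mean log2(FPKM + 1), and the 3 genes most like *Kcnk2*, which was also the member with a count in most neurons. The result of 1 gene named by this rule is not reported here. The overlap of *A430027H14Rik* with *Kcnk2*, and the counts of *Kcnk13* against microglial markers neuron by neuron, were examined after their values were seen. Positions are those of GENCODE M21 on GRCm38. Recordings and reads were not analysed here.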

Additional observations from a re-analysis of the deposited data

How the results depend on the processing

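The number of genes called between the subtypes was 1 in the edgeR fit on sums. It was 24 without the prefix as a block, 130 with neurons as samples, 174 with neurons and the prefix as a block, 2 with filterByExpr, and 3 after the exclusion rule on counts or on TPM. With DESeq2 it was 548 on the sums and 65 on neurons, and, in alternatives added after seeing the data, 53 without the nearly equal pair and 43 after the exclusion rule. Leaving out each prefix in turn gave 1 to 7. The number of members called was 0. It was 1 with edgeR on neurons and the prefix as a block (*Kcnk1*), 1 with DESeq2 on the sums (*Kcnk1*), and 1 with DESeq2 on neurons as deposited, without the pair and after the exclusion rule (*Kcnk2* each time). Leaving out each prefix in turn gave 0 to 0. No log2 fold change of the 3 tested members reversed: over 28 alternatives *Kcnk1* lay between −5.57 and −1.64 and *Kcnk2* between −3.61 and −0.64, and over 27 *Kcnk12* lay between 1.07 and 4.15. The median over all genes lay between −0.050 and 0.65 over these fits. Over 19 alternatives each, the differences in level and share of *Kcnk1*, *Kcnk2* and *Kcnk12* kept their direction and none passed an adjusted p under 0.05. Of the rarer members, which were tested only with no gene filter, the share of *Kcnk13* turned from −8.33 to 1.19 points at 5 counts and to 1.52 points after thinning, that of *Kcnk4* from −4.05 to 1.52 points after thinning, and that of *Kcnk3* from 2.74 to −0.90 points without prefix 902. The level of *Kcnk4* turned in 3 alternatives and that of *Kcnk13* in 1. Shares of neurons with a count stayed inside the main Wilson interval in 64 of 64 comparisons. Among neurons with at least 100000 counts, thinning to that depth took *Kcnk1* from 10 to 7 and *Kcnk2* from 11 to 9 of 34 Pyr←ORBvl neurons.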
